A study of Saccharomyces cerevisiae with 6 samples.

Results

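The genes of the aminoacyl-tRNA synthetases were examined in H3K4me3 ChIP-Seq peak lists of WT and *jhd2∆* budding yeast. The 34 genes were taken by name, 21 for cytosolic enzymes and 13 for enzymes that act only in mitochondria, out of 4970 genes with an H3K4me3 peak in at least 1 of the 2 lists. The rule itself used no value of the lists, but the group was chosen with earlier results of these data known. Of the 21 cytosolic genes, 5 were classed here as encoding enzymes that also serve mitochondria, a class that the lists do not give. Both strains were BY4742 derivatives, WT (MSY723) and a strain lacking *JHD2* (MSY724), and both were grown in YAR, a medium with raffinose as the carbon source and ammonium sulfate as the nitrogen source, to an O.D.600 of 0.5. Each genotype had 1 H3K4me3 library, beside a pan-H3 and a whole cell lysate library that were not analysed here. There was no replicate of either H3K4me3 library, so values were described by their counts and distribution over genes and no p-value was computed.

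Aminoacyl-tRNA synthetases join each amino acid to its tRNA, and yeast runs this reaction in the cytosol for nuclear messages and in mitochondria for the few messages of the mitochondrial genome. All the mitochondrial enzymes are encoded in the nucleus and imported. The enzymes fall into class I and class II, which have unrelated catalytic folds. Trimethylation of lysine 4 of histone H3 is laid down by Set1 over the first part of transcribed genes and is removed by the demethylase Jhd2, so that a peak of the mark normally starts near the transcription start and reaches into the coding region.

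In WT 4452 peaks had been assigned to 4628 genes, and in *jhd2∆* 4713 peaks to 4868 genes. The breadth of a peak is its length in bp from its first to its last base, and its pileup is the height of the stacked reads at the peak. The median gene had a breadth of 657 bp and a pileup of 301 in WT, and a breadth of 676.5 bp and a pileup of 272 in *jhd2∆*. The study describes ChIP-Seq normalization as making the total H3K4me3 signal of the genotypes equal, with no spike-in, and does not say how this was done for the deposited pileup. Pileup was therefore compared among genes of 1 list, and a difference in the total amount of the mark cannot be read from these values. The study sets a limit on breadth as well, and proposes that it reflects gain of the mark in *jhd2∆* only superficially. Its ChIP-qPCR found more H3K4me3 in *jhd2∆* at genes chosen for having no breadth change. A small breadth difference is thus no measure of how much the mark differed at a gene. *JHD2* itself had a WT peak of 503 bp and none in the *jhd2∆* list. Positions are given as in the lists, which name no genome build. The labels give about 14000000 reads per library, and the lists hold no read totals.

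All 21 cytosolic genes had a peak in both lists. Of the 13 mitochondrial genes, 9 were listed in WT and 12 in *jhd2∆*. Among 6002 nuclear protein-coding genes of the RefSeq table, 74.5% were listed in WT and 78.7% in *jhd2∆*. No synthetase gene was listed in WT alone, 3 were listed in *jhd2∆* alone (5.35% of the RefSeq genes were), and 1 was in neither list (20.1% of the RefSeq genes were). Each listed synthetase gene had 1 peak that it shared with no other gene.

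The 3 genes found only in the *jhd2∆* list were *MSD1*, *MSY1* and *NAM2*. *NAM2* (YLR382C), for the mitochondrial leucyl enzyme that also takes part in the splicing of mitochondrial introns, had a *jhd2∆* peak of 876 bp with a pileup of 261 (chromosome XII, from 884174 to 885049). *MSY1* (YPL097W), for the tyrosyl enzyme, had a peak of 681 bp with a pileup of 271 (chromosome XVI, from 364888 to 365568). *MSD1* (YPL104W), for the aspartyl enzyme, had a peak of 609 bp with a pileup of 264 (chromosome XVI, from 355617 to 356225). All 3 pileups were below the median gene of that list, while the breadths of *NAM2* and *MSY1* were above it. No peak of any gene in the WT list overlapped these positions. *MSM1* (YGR171C), for the methionyl enzyme, was in neither list, and the nearest listed peaks on either side, those of *PSD2* and *RBG2*, lay 6049 bp apart in WT and 6038 bp apart in *jhd2∆*.

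The peak numbers in the lists bear on these absences. Peaks carry running numbers, and the lists do not say why a number is missing. In the WT list 1 number was missing in each of the intervals that hold *MSD1*, *MSY1*, *NAM2* and *MSM1*, and in the *jhd2∆* list 1 was missing in the interval of *MSM1*. A number was missing in 723 of 4436 intervals between neighbouring peaks in WT (16.3%) and in 674 of 4697 in *jhd2∆* (14.3%). These shares are over all intervals, and intervals that hold a gene without a listed peak were not set apart. A missing number does not say where in the interval a peak lay, so whether these genes carried a called but unassigned peak could not be read from the lists.

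In WT, the median peak was broader and taller on the cytosolic genes than on the mitochondrial genes. The median breadth was 775 bp over the 21 cytosolic genes, with quartiles of 763 and 828 bp, and 561 bp over the 9 listed mitochondrial genes, with quartiles of 533 and 603 bp. The ranges, 602 to 1107 bp and 459 to 744 bp, overlapped in part, and 3 mitochondrial genes (*SLM5*, *MSR1* and *DIA4*) were above the narrowest cytosolic peak. No mitochondrial gene reached the cytosolic median. Of the cytosolic genes 19 were above the median breadth of the list, where 49.8% of all genes were, and of the 9 mitochondrial genes 2 were.

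In *jhd2∆* the median breadth was 827 bp over the 21 cytosolic genes, with a range of 582 to 1078 bp, and 664 bp over the 12 listed mitochondrial genes, with a range of 464 to 1397 bp. Above the median of that list were 19 of the 21 cytosolic and 6 of the 12 mitochondrial genes, beside 50% of all genes, so the mitochondrial share was that of all genes there. The 12 include the 3 genes with no WT peak, and 2 mitochondrial genes, *NAM2* and *MSW1*, exceeded the cytosolic median.

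The same order held for WT pileup. The median was 325 for the cytosolic genes, with a range of 308 to 352, and 292 for the mitochondrial genes, with a range of 257 to 320. All 21 cytosolic genes were above the median of the list, where 49.7% of all genes were, and 2 of the 9 mitochondrial genes were, *MSK1* and *MST1*. In the *jhd2∆* list the medians were 296 for the cytosolic and 262.5 for the 12 mitochondrial genes. There 20 of the 21 cytosolic and 3 of the 12 mitochondrial genes were above the median of the list, where 49.8% of all genes were. These values come from 1 library per genotype, and pileup and breadth of a peak are read from the same reads.

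**Figure D1:**
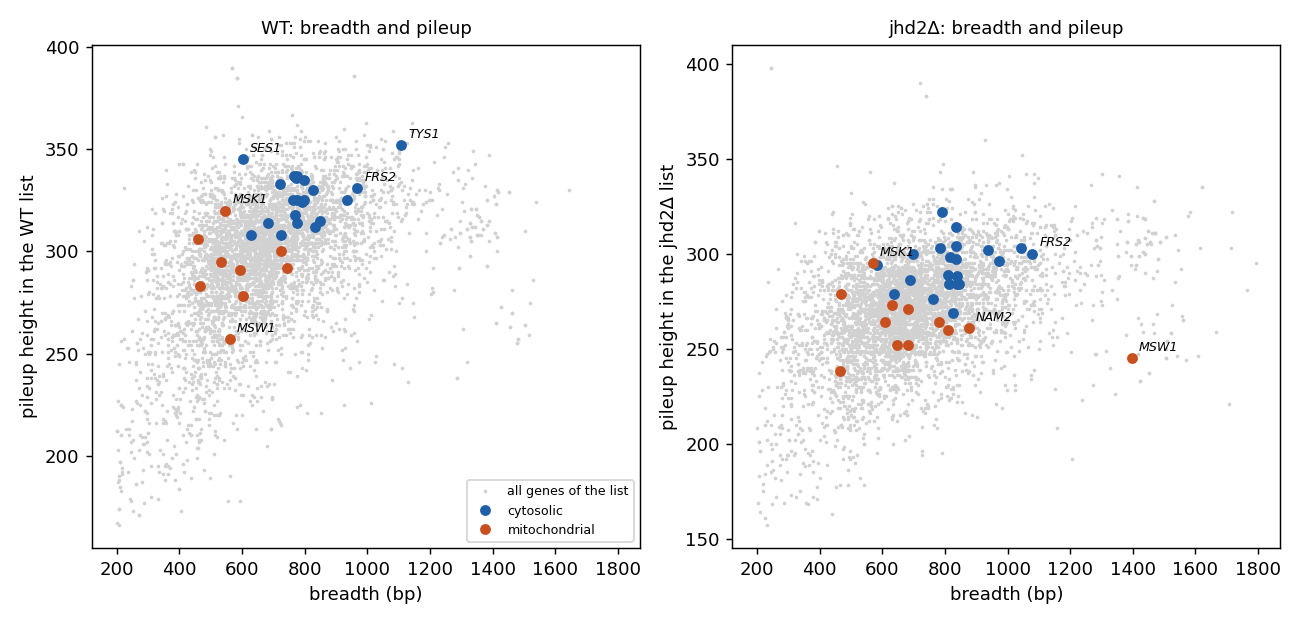
Breadth of the peak in bp against its pileup for each synthetase gene over all listed genes, in the WT list and in the *jhd2∆* list. The 21 cytosolic genes sit at WT pileups of 308 to 352 and the 9 mitochondrial genes listed in WT at 257 to 320.

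Across the 30 genes listed in both genotypes, the *jhd2∆* peak was the wider at 24 and the narrower at 6, where it was at 63.2% and 35.9% of 4526 genes. A difference of more than 100 bp was found at 4 genes that were wider, *FRS2*, YDR341C, *MSE1* and *MSW1*, and at none that was narrower. Of all genes 14.2% were wider and 1.3% narrower by that much, so the share of synthetase genes past this limit was near that of all genes. Past 200 bp there was 1 wider gene, *MSW1*, and no narrower one, beside 3.62% and 0.464% of all genes. At 50 bp the counts were 12 wider and 1 narrower, beside 29.1% and 5.86%. The median difference, *jhd2∆* minus WT, was 24 bp over the 21 cytosolic genes and 57 bp over the 9 mitochondrial genes, beside 17 bp over all genes. The quartiles, 7 and 58 bp for the cytosolic genes and 24 and 78 bp for the mitochondrial genes, overlapped each other and those of all genes, -14 and 60 bp. The median pileup of all genes also differed between the lists, 301 and 272, and its part in the breadth differences was not tested. Without *MSW1* the mitochondrial median was 46 bp, and without the 5 enzymes classed as shared with mitochondria the cytosolic median was 41.5 bp.

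**Figure D2:**
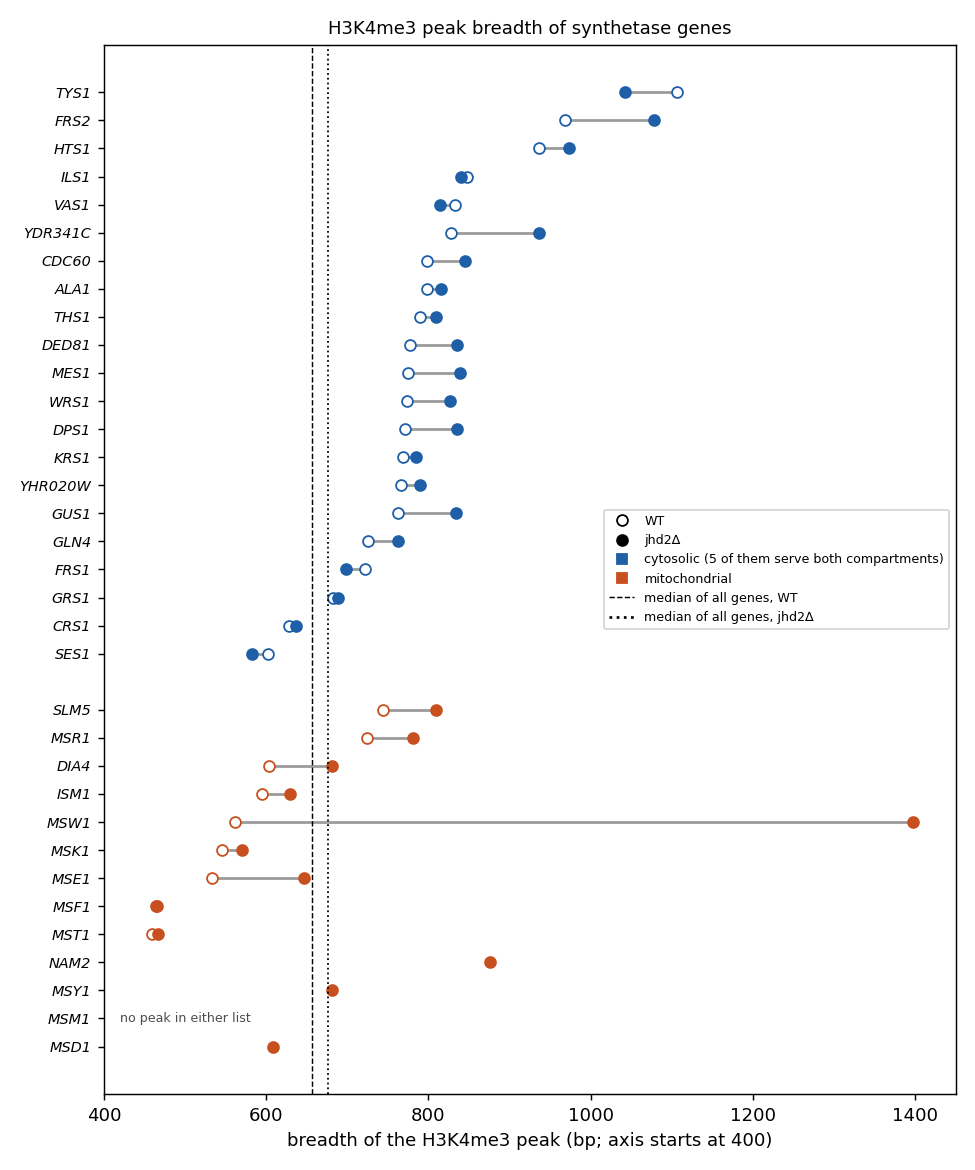
Breadth of the peak in bp in WT (open circles) and in *jhd2∆* (filled circles) for each of the 34 synthetase genes, cytosolic and mitochondrial enzymes apart. The WT and *jhd2∆* values of most genes lie close together, and *MSW1*, at 561 and 1397 bp, is the exception.

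Among the cytosolic enzymes, the phenylalanyl enzyme is built from a pair of different subunits, and the peaks of its subunit genes differed in opposite directions. *FRS2* (YFL022C), for the alpha subunit, had a peak of 968 bp in WT, which was 1078 bp in *jhd2∆*, a difference of 110 bp (chromosome VI, from 94055 to 95022 in WT and from 93943 to 95020 in *jhd2∆*). *FRS1* (YLR060W), for the beta subunit, had 722 bp in WT and 699 bp in *jhd2∆* (chromosome XII, from 260914 to 261635 and from 260952 to 261650). Their pileups were alike, 331 and 333 in WT and 300 in *jhd2∆* for both.

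YDR341C, the gene of the cytosolic arginyl enzyme, had the next largest difference among the cytosolic genes. In WT its peak was 828 bp and in *jhd2∆* it was 936 bp, a difference of 108 bp (chromosome IV, from 1152862 to 1153689 and from 1152732 to 1153667). *FRS2* was above 87.8% and YDR341C above 87.2% of all genes in this difference. Neither value stood outside the spread of all genes.

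Wider peaks in *jhd2∆* were found at 16 of the 21 cytosolic genes, beside 63.2% of all genes. Those serving the acidic amino acids and their amides were among the 16. The peak of *GUS1* (YGL245W), whose glutamyl enzyme binds the cofactor Arc1 together with the methionyl enzyme, was 763 bp in WT and 834 bp in *jhd2∆*. That of *DPS1* (YLL018C), for the aspartyl enzyme, was 771 and 835 bp. The asparaginyl gene *DED81* (YHR019C) had 777 and 835 bp, and the glutaminyl gene *GLN4* (YOR168W) had 726 and 762 bp. *MES1* (YGR264C), for the methionyl enzyme that charges both initiator and elongator tRNA, had 775 bp in WT and 839 bp in *jhd2∆*. Its difference of 64 bp equalled that of *DPS1*.

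*TYS1* (YGR185C), for the tyrosyl enzyme, had the broadest WT peak of the 34 genes and was the only one narrower by more than 50 bp. Its peak was 1107 bp in WT and 1042 bp in *jhd2∆* (chromosome VII, from 866481 to 867587 and from 866523 to 867564), a difference of -65 bp that was above 3.5% of all genes. The WT peak was as long as 93.5% of the gene, against a median of 37.1% for the cytosolic genes. *TYS1* also had the tallest WT peak of the synthetase genes, with a pileup of 352 that was above 98.8% of the list.

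*SES1* (YDR023W), for the seryl enzyme, combined the narrowest cytosolic peak with the next tallest one. It had 602 bp in WT against 582 bp in *jhd2∆*, and its WT pileup of 345 was above 97.1% of the list. The other cytosolic genes with narrower peaks in *jhd2∆* were *FRS1*, *ILS1* (YBL076C, with 848 and 840 bp), for the isoleucyl enzyme, and *VAS1* (YGR094W, with 833 and 814 bp), for the valyl enzyme. The tryptophanyl gene *WRS1* (YOL097C) had 774 and 827 bp and the leucyl gene *CDC60* (YPL160W) had 798 and 845 bp. Lysyl *KRS1* (YDR037W), threonyl *THS1* (YIL078W) and prolyl YHR020W differed by 16, 19 and 24 bp.

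The peaks of the 5 genes classed here as serving both compartments differed by at most 37 bp between the lists. *HTS1* (YPR033C), for the histidyl enzyme, had 936 bp in WT against 973 bp in *jhd2∆*, and *ALA1* (YOR335C), for the alanyl enzyme, had 798 and 816 bp. *GRS1* (YBR121C), for the glycyl enzyme, had 682 and 689 bp, and *CRS1* (YNL247W), for the cysteinyl enzyme, had 628 and 637 bp. With *VAS1*, their differences ran from -19 to 37 bp with a median of 9 bp. Over all genes the median was 17 bp, with quartiles of -14 and 60 bp. Of the 5 genes 4 were wider, beside 63.2% of all genes. The remaining 16 cytosolic genes ran from -65 to 110 bp, so the whole range of the dual enzymes lay within theirs. A different classing, for example of *GUS1* with its difference of 71 bp, would change the limit of 37 bp.

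*DED81* and YHR020W lie head to head on chromosome VIII, and their peaks are neighbours in both lists. The *DED81* peak ran from 142844 to 143620 in WT and from 142746 to 143580 in *jhd2∆*, and the YHR020W peak from 143921 to 144686 and from 143943 to 144732. The stretch between the peaks was 300 bp in WT and 362 bp in *jhd2∆*. Both peaks were wider in *jhd2∆*, and the upstream edge of each lay further from the shared intergenic stretch there. Their pileups were 337 each in WT and 304 and 322 in *jhd2∆*.

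Of the 9 mitochondrial genes listed in both genotypes, 8 were wider in *jhd2∆*, beside 63.2% of all genes. *MSE1* (YOL033W), for the glutamyl enzyme, had 533 bp in WT and 647 bp in *jhd2∆* (chromosome XV, from 263437 to 263969 and from 263419 to 264065), a difference of 114 bp that was above 88.5% of all genes. *DIA4* (YHR011W), for the seryl enzyme, had 603 and 681 bp. *SLM5* (YCR024C), for the asparaginyl enzyme, had the broadest WT peak of this group, 744 bp, and 810 bp in *jhd2∆*.

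*MSR1* (YHR091C), for the arginyl enzyme, had 724 bp in WT against 781 bp in *jhd2∆*, and *ISM1* (YPL040C), for the isoleucyl enzyme, had 595 and 630 bp. *MSK1* (YNL073W), for the lysyl enzyme, had 546 and 570 bp and the tallest WT peak of this group, with a pileup of 320. The 2 narrowest peaks of the mitochondrial group were also the 2 that differed least. *MST1* (YKL194C), for the threonyl enzyme, had 459 and 467 bp, and *MSF1* (YPR047W), for the phenylalanyl enzyme, which acts as a single chain in mitochondria, had 466 and 464 bp.

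*MSW1* (YDR268W), for the mitochondrial tryptophanyl enzyme, stood apart from the other 29 genes. Its peak was 561 bp in WT and 1397 bp in *jhd2∆* (chromosome IV, from 1003886 to 1004446 and from 1003939 to 1005335), 2.49 times as wide, and the difference of 836 bp was above 99.9% of all genes. The upstream edge lay 53 bp nearer to the gene in *jhd2∆* and the downstream edge 889 bp further downstream. The peak was as long as 49.3% of the gene in WT and 122.7% in *jhd2∆*, so it also reached outside the gene there. Its pileup was 257 in WT, above 10.6% of the list, and 245 in *jhd2∆*.

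The surroundings of *MSW1* differed in the same place. The next listed peak downstream, assigned to *CCC2* and YDR269C, began at 1005517 in WT and 1005521 in *jhd2∆*, so that the stretch between the peaks was 1070 bp in WT and 185 bp in *jhd2∆*. In WT the *MSW1* peak was number 1051 and the *CCC2* peak number 1053, with 1 number missing between them, while in *jhd2∆* they were numbers 1085 and 1086. What the missing WT number stood for is not in the list, and whether the single *jhd2∆* peak covers 2 regions that were called apart in WT was not tested.

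The edges of the peaks were then followed separately, counted along the direction of transcription. A positive shift of the downstream edge means that it lay further in that direction in *jhd2∆*, called further in here. At *MSW1*, whose *jhd2∆* peak was longer than the gene, this need not mean further into the gene. The downstream edge lay further in at 28 of the 30 genes, where it did at 77.4% of 4521 genes. The exceptions were *SES1* and *TYS1*, with shifts of -12 and -42 bp. The median downstream shift was 49 bp for the cytosolic genes, with quartiles of 16 and 87 bp, and 56 bp for the mitochondrial genes, with quartiles of 45 and 73 bp, beside 29 bp for all genes with quartiles of 3 and 69 bp. The largest cytosolic shifts were those of YDR341C, 130 bp, and *FRS2*, 112 bp.

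At the upstream edge the peak began nearer to the gene in *jhd2∆* at 27 of the 30 genes, where it did at 80.6% of all genes. The exceptions were *CDC60*, *MSE1* and *DIA4*, whose peaks began 3, 18 and 22 bp further out. The median upstream shift was -22 bp for the cytosolic and -7 bp for the mitochondrial genes, beside -13 bp for all genes with quartiles of -24 and -4 bp. The cytosolic gene with the largest upstream shift was *GRS1*, at -68 bp, and its downstream shift of 75 bp left its breadth nearly the same. Both edges lay in these directions at 25 of the 30 genes, where 62.5% of all genes did so, and at 18 of the 21 cytosolic genes. For most synthetase genes the *jhd2∆* peak was placed further along the gene as well as wider.

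**Figure D3:**
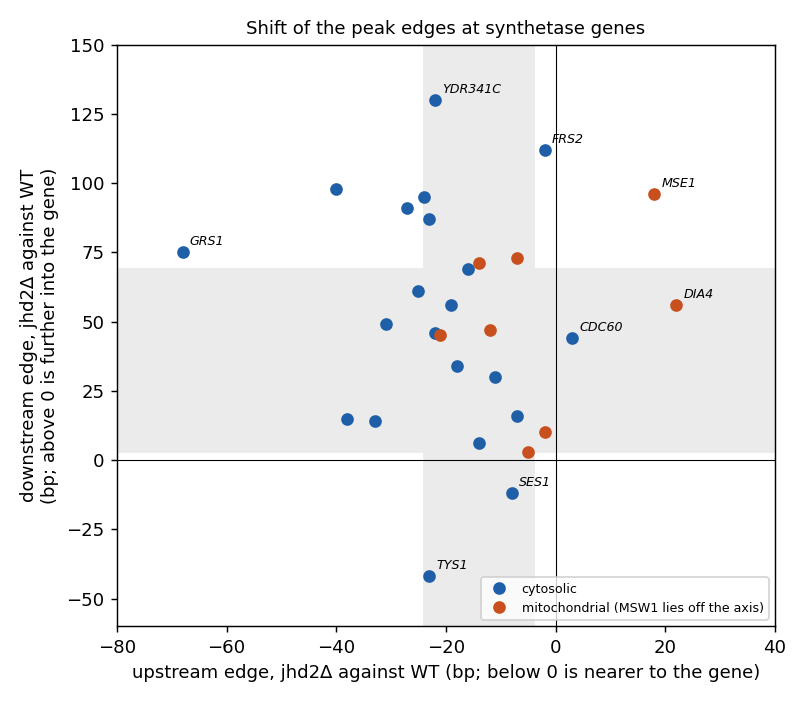
Shift of the upstream edge (in bp) and of the downstream edge (in bp) of each peak, *jhd2∆* minus WT, along the direction of transcription, with grey bands for the quartiles of all genes. The downstream edge lies further in at 28 of 30 genes, and *MSW1*, with a downstream shift of 889 bp, lies off the axis.

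Breadth differences were weakly and inversely related to WT pileup over 4526 genes, with Pearson's r of -0.262 and Spearman's rho of -0.257. Over the 21 cytosolic genes these were -0.114 and 0.0427. They were -0.738 and -0.45 over the 9 mitochondrial genes, and -0.252 and -0.214 without *MSW1*. The synthetase genes were therefore set beside genes of like WT pileup. The genes with peaks in both lists were put in 5 groups by WT pileup. In the highest group, with pileups of 322 to 390, the median difference of all 890 genes was -2 bp and 48% were wider in *jhd2∆*, while the 14 cytosolic synthetase genes found there had a median of 42 bp and 11 were wider. In the group below it, with pileups of 309 to 321, all 870 genes had a median of 10 bp and the 5 cytosolic genes one of 7 bp, with 3 wider. The remaining 2 cytosolic genes were in the middle group, with a median of 22.5 bp beside 15 bp for all genes.

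The mitochondrial genes were at lower pileups, and 5 of the 9 were in the group of 276 to 295. Their median difference was 66 bp with 4 wider, beside 24 bp and 68.5% for all 928 genes of that group. *MSW1* alone was in the lowest group, where the median of all genes was 44 bp and 76.8% were wider. No mitochondrial gene was in the highest group and no cytosolic gene in the lowest 2, and the cytosolic and mitochondrial genes shared the middle group and the one above it, with 2 and 1 mitochondrial genes. The part of pileup in the difference between the cytosolic and mitochondrial medians was not tested. The genes of each group also differ in other ways that were not examined.

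For 13 amino acids a cytosolic and a mitochondrial enzyme come from separate genes, which gives 14 pairs because the phenylalanyl enzyme has a pair of cytosolic subunits and both are set against *MSF1*. In WT, 10 pairs had both peaks, and the cytosolic peak was broader in 9 of them, with a median difference of 226.5 bp. The exception was serine, where *SES1* had 602 bp and *DIA4* 603 bp. The cytosolic peak was also taller in 9 of the 10, by a median of 37.5, and the exception was lysine, where *KRS1* had a pileup of 318 and *MSK1* one of 320.

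In *jhd2∆*, 13 pairs had both peaks and the cytosolic one was taller in all 13, by 8 to 62 with a median of 38. It was broader in 10 of the 13, with a median difference of 210 bp, and the exceptions were tryptophan, where *WRS1* had 827 bp and *MSW1* 1397 bp, serine, where *SES1* had 582 bp and *DIA4* 681 bp, and leucine, where *CDC60* had 845 bp and *NAM2* 876 bp. In the difference between the lists the mitochondrial gene had the larger value in 7 of 10 pairs and the cytosolic gene in 3, with a median difference of -14.5 bp. The pairs that share *MSF1* are not independent of each other.

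**Figure D4:**
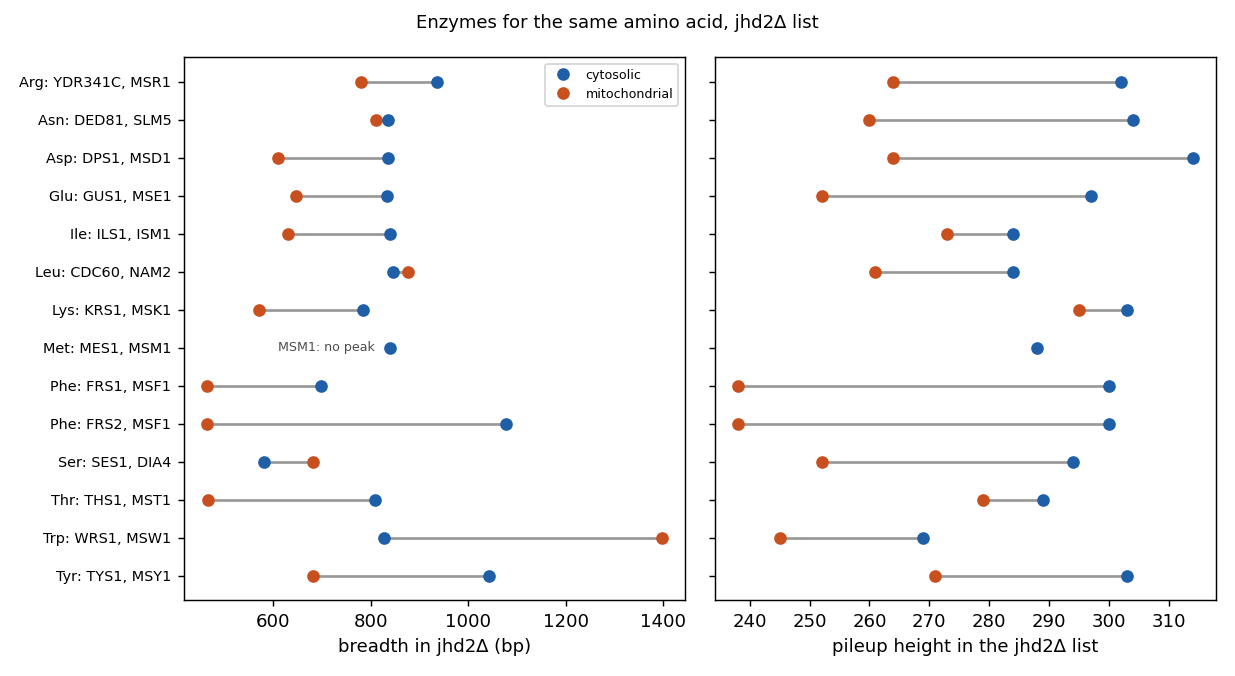
Breadth in bp (left) and pileup (right) of the *jhd2∆* peaks of the cytosolic and mitochondrial genes for the same amino acid, joined by a line. The cytosolic gene is the taller in all 13 pairs with both peaks and the broader in 10 of them, and *MSM1* has no peak.

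Among the cytosolic genes, those of class II had the higher median pileup in both lists, with overlapping ranges. The median WT pileup was 333 over the 11 cytosolic class II genes and 320 over the 10 class I genes, and the ranges were 314 to 345 and 308 to 352. In *jhd2∆* the medians were 300 and 284, the quartiles, 295 and 303.5 for class II and 280.25 and 294.75 for class I, did not overlap, and the ranges were 286 to 322 and 269 to 303. The median WT breadths were 771 bp for class II and 786.5 bp for class I. The median differences between the lists were 19 bp for class II and 41.5 bp for class I, both within the quartiles of the other class. Among the 7 mitochondrial genes of class I, *MSY1*, *NAM2* and *MSM1* had no WT peak, and among the 6 of class II, *MSD1* had none. These groups are small.

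Gene length varied widely among the members and went with breadth only weakly. The genes ran from 1139 bp at *MSW1* to 3314 bp at *VAS1* by the lengths in the WT list, with a median of 2003 bp for the cytosolic and 1478 bp for the mitochondrial genes listed there, beside 1233.5 bp for all genes. Over the 21 cytosolic genes Pearson's r between length and WT breadth was -0.14 and Spearman's rho -0.0234, and over 4526 genes they were 0.225 and 0.27. Over the 9 mitochondrial genes they were 0.212 and 0.233, and over all 30 members listed in both genotypes 0.17 and 0.28. *CDC60* and *VAS1*, with the longest cytosolic coding regions together with *ILS1*, had WT peaks as long as 24.4% and 25.1% of the gene. Breadths in WT and in *jhd2∆* went together over the 21 cytosolic genes, with r of 0.931 and rho of 0.867, and all points of a list share its library.

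Of 16 further genes of tRNA charging and its surroundings, 14 were in both lists. Their peaks were wider in *jhd2∆* at 6 and narrower at 8, beside 63.2% and 35.9% of all genes, and the median difference was -6 bp, beside 17 bp. The downstream edge lay further in at 11 of the 14 and the upstream edge nearer to the gene at 12, beside 77.4% and 80.6% of all genes. *PET112* encodes a subunit of the mitochondrial amidotransferase that makes glutaminyl-tRNA in place of a mitochondrial glutaminyl enzyme. Its peak was 684 bp in WT and 972 bp in *jhd2∆*. Of the other genes of that complex, *HER2* was listed only in *jhd2∆*, with 529 bp. *GTF1* went the other way, with 576 bp in WT and 565 bp in *jhd2∆*. *CCA1*, which adds the CCA end to tRNAs of both compartments, had 573 and 677 bp.

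*GCN2*, the kinase that senses uncharged tRNA, had a narrower peak in *jhd2∆*, 734 bp against 882 bp in WT, and *GCN4*, the transcription factor translated when that kinase is active, had 1001 and 989 bp. *ARC1*, the cofactor of the cytosolic glutamyl and methionyl enzymes, had 721 and 720 bp. *AIM10*, which resembles prolyl enzymes and is found in mitochondria, had 543 and 515 bp. *GRS2*, a copy of the glycyl gene *GRS1*, was in neither list.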

How the data were processed

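The peak lists of 1 H3K4me3 library per genotype were analysed. According to the labels and the study's methods, 51 bp single-end reads were aligned with Bowtie2 2.2.3 to a yeast reference from iGenomes. Peaks came from MACS2 without its broad option and were given to the genes whose 5′ coding part they overlapped. The build and the control library are not given in the sources used here. The study says that normalization made total H3K4me3 signal equal between the genotypes, without a spike-in, but not how it was applied to pileup. The authors deposited a pileup, a coverage signal, and the position and breadth of each peak in bp. In the WT list, 12 empty columns and 5 repeat or ratio columns were not used.

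Members were matched by systematic name, with the widest peak of a gene. All 34 matched the RefSeq table of assembly R64, used only for names, neighbours and the set of nuclear protein-coding genes. By rule the synthetase genes and *JHD2* are named, and values are given for up to 8 of the 16 pathway genes. Members and lists were chosen with earlier results of these data known. Strand was read from the systematic name. Alternatives changed the peak chosen, the limits, the overlap and the genes used. Python 3.11.15, numpy 2.4.6, pandas 2.3.3 and matplotlib 3.10.9 were used, and the computation was tested on simulated data. Genes are not replicates, and depth per peak could not be read from the lists.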

Additional observations from a re-analysis of the deposited data

How the results depend on the processing

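No paired analysis was possible because H3K4me3 was sequenced in 1 library per genotype, and no replicate could be left out. A reversal meant a change of sign, which only the median differences and edge shifts could show, not the counts or WT breadths. No sign changed among 55 alternative values. Of these, 39 were identical to the reported ones, in part because some of the alternatives, described below, could not change any value. Without the enzymes classed as serving both compartments the cytosolic median difference was 41.5 bp and the median downstream shift 53.5 bp. The number of wider genes was 12 at a limit of 50 bp and 1 at 200 bp. Without *MSW1*, an alternative chosen after seeing the data, the mitochondrial median difference was 46 bp and the median downstream shift 51.5 bp. With an overlap of 50% of both peaks required, 29 of 30 genes were paired, and *MSW1* was lost. The choice of the tallest peak, or of peaks of 1 gene only, could not change any value because each member has 1 peak of its own. A planned motif count in promoters was not run, since no sequence was used here.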
